A study of Mus musculus with 11 samples.

Results

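Venous endothelial cells of the mouse brain were examined in single-cell RNA libraries from the cerebral vasculature of 11 mice. Barcodes were kept if they had 500 or more genes detected and if no more than 10% of their UMIs (unique molecular identifiers, each counting 1 captured transcript) came from mitochondrial genes. It passed the endothelial gate when Cldn5, Flt1 and Itm2a summed to at least 4 UMIs and P2ry12, Cx3cr1, Vtn and Myh11, genes of microglia and of the mural cells of the vessel wall, summed to at most 2. It was called venous when Il1r1, Adgrg6 and Col6a6 then summed to at least 2 UMIs, the arterial genes Gkn3, Bmx and Sema3g to at most 1, and Ackr1, Sele, Selp, Lcn2 and Lrg1, genes of inflamed venules, to at most 2. The rule found 6012 venous cells among 61625 kept cells, of which 38627 passed the endothelial gate. Each mouse gave between 285 and 962 of them. The cells were selected on these expression values, so the levels of the rule genes describe the selection and are not a result.

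The 6 CADASIL mice (R182C-TgN3) carried a human NOTCH3 transgene with the R182C change, and the 5 control mice (WT-TgN3) carried the wild-type human NOTCH3 transgene, so no group lacked the human gene and both kept mouse Notch3. The CADASIL mice were 3 animals of 9 months and 3 of 6 months, with 4 females and 2 males. The control mice were 2 animals of 9 months and 3 of 6 months, with 3 females and 2 males. All were untreated. They were prepared in 4 batches, and each batch held mice of a single age: batch 1 (4 mice) and batch 2 (1 CADASIL mouse) were 9 months old, and batch 3 (4 mice) and batch 4 (2 mice) were 6 months old. Age and preparation batch therefore cannot be told apart. Vessel fragments were enriched with antibodies to CD31, an endothelial surface protein, digested to single cells and sequenced with a droplet 3′ kit, which reads the end of each transcript.

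Venous endothelial cells line the vessels that collect blood from the capillary bed. In the brain they share the barrier properties of capillaries, and the small venules are the main site where leukocytes attach to the vessel wall and cross it, using adhesion molecules such as Vcam1 and Icam1. The venous fate depends on the nuclear receptor Nr2f2, which holds Notch signalling down, whereas the arterial fate requires Notch. Il1r1, the signalling receptor for interleukin-1, is concentrated on the venous side of the brain circulation.

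In all, 66658 barcodes were deposited for the 11 mice, and the UMIs of a library summed to 17550806 at the lowest and 64215050 at the highest. The venous cells had a median of 8691 UMIs and 3258 genes, against 3886 UMIs and 1880 genes in capillary cells, and the median per mouse ran from 5440 to 14373 UMIs. A rule on raw UMIs takes deeper cells more easily, so shares of cells and within-class rankings are also given after thinning every cell to 2000 UMIs. Libraries shared barcodes: 966 of 65086 distinct barcodes occurred in more than 1 library, and 102 venous cells (1.70%) carried one. Doublets were scored by simulation but kept, and 237 venous cells (3.94%) were among the highest-scoring barcodes of their library, which were removed in an alternative. Another 34 venous cells carried RNA of other cell types: 15 had more than 1% of their UMIs from Ttr, a choroid plexus gene, 5 had more than 1% from Gh, a pituitary hormone gene, and 14 had at least 2 UMIs of Dcn, a fibroblast gene. Summed over venous cells, Ttr reached 3155 CPM (counts scaled to a common total of UMIs) in R182C-TgN3 mouse 3, 2503 in WT-TgN3 mouse 4 and 2484 in WT-TgN3 mouse 5, against 6.76 to 245 CPM in the other mice, and in those 3 mice at least 95.5% of the Ttr UMIs lay in 5 cells. Gh (2357 CPM) and Prl (476 CPM) were high in WT-TgN3 mouse 5. Each contrast was repeated without the shared barcodes and without these cells.

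The rule rested mostly on Il1r1. Of the venous cells, 5587 had at least 2 Il1r1 UMIs, 102 had none, 3304 had neither Adgrg6 nor Col6a6, and 1137 had all 3 genes. The sum of the 3 genes was exactly 2 in 1494 cells, 3 in 877, 4 in 578 and over 10 in 1505. Cells just inside the limit (sum of 2, median 5500 UMIs) and the 3443 otherwise eligible cells just outside it (sum of 1, median 4682 UMIs) differed in level. Inside and outside, Vwf was at 362 and 236 CPM, Nckap5 at 215 and 141, Nr2f2 at 154 and 100.3, and Slc38a5 at 213 and 171. Each of these 4 genes was higher inside the limit in 11 of 11 mice. Capillary genes were mixed: Cxcl12, a chemokine gene, was at 810 CPM just inside and 1257 CPM just outside (lower inside in 11 mice), whereas Car4 was at 762 and 755 CPM, Slc16a1 at 393 and 385 CPM and Tfrc at 399 and 404 CPM, with either sign among the mice.

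The label was checked on markers outside the rule. Vwf encodes von Willebrand factor, which tethers platelets, and summed to a mean of 688 ± 124 CPM (SD, n = 11 mice) in venous cells, 115 CPM in capillary cells, 241 in arterial cells and 1544 in the inflamed venule-like cells. Nckap5 was at 419 ± 75.8 CPM in venous cells and at 58.6, 25.5 and 364 CPM in the same other classes. Slc38a5, a glutamine transporter, was at 300.5 ± 36.2 CPM against 99.5, 9.19 and 448 CPM. Nr2f2 was at 257 ± 36.8 CPM against 51.0, 12.1 and 379 CPM. The 3 markers and Nr2f2 were higher in venous than in capillary cells in every mouse, and all 4 had a lower mean in arterial than in venous cells. Venous cells expressed Pecam1 at 604 to 885 CPM and Cdh5 at 401 to 642 CPM per mouse, both general endothelial genes, and 61 of 6012 cells had no UMI of either. The lymphatic genes Prox1 and Lyve1 were absent from 5903 cells. In the mm10 build, GENCODE annotated the rule gene Il1r1 at chr1:40225080-40317257 (plus strand) and the markers Vwf at chr6:125546774-125686679 (plus strand), Nckap5 at chr1:125913620-126830799 (minus strand) and Slc38a5 at chrX:8271133-8280179 (plus strand). Counts were summed over each whole gene.

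**Figure D1:**
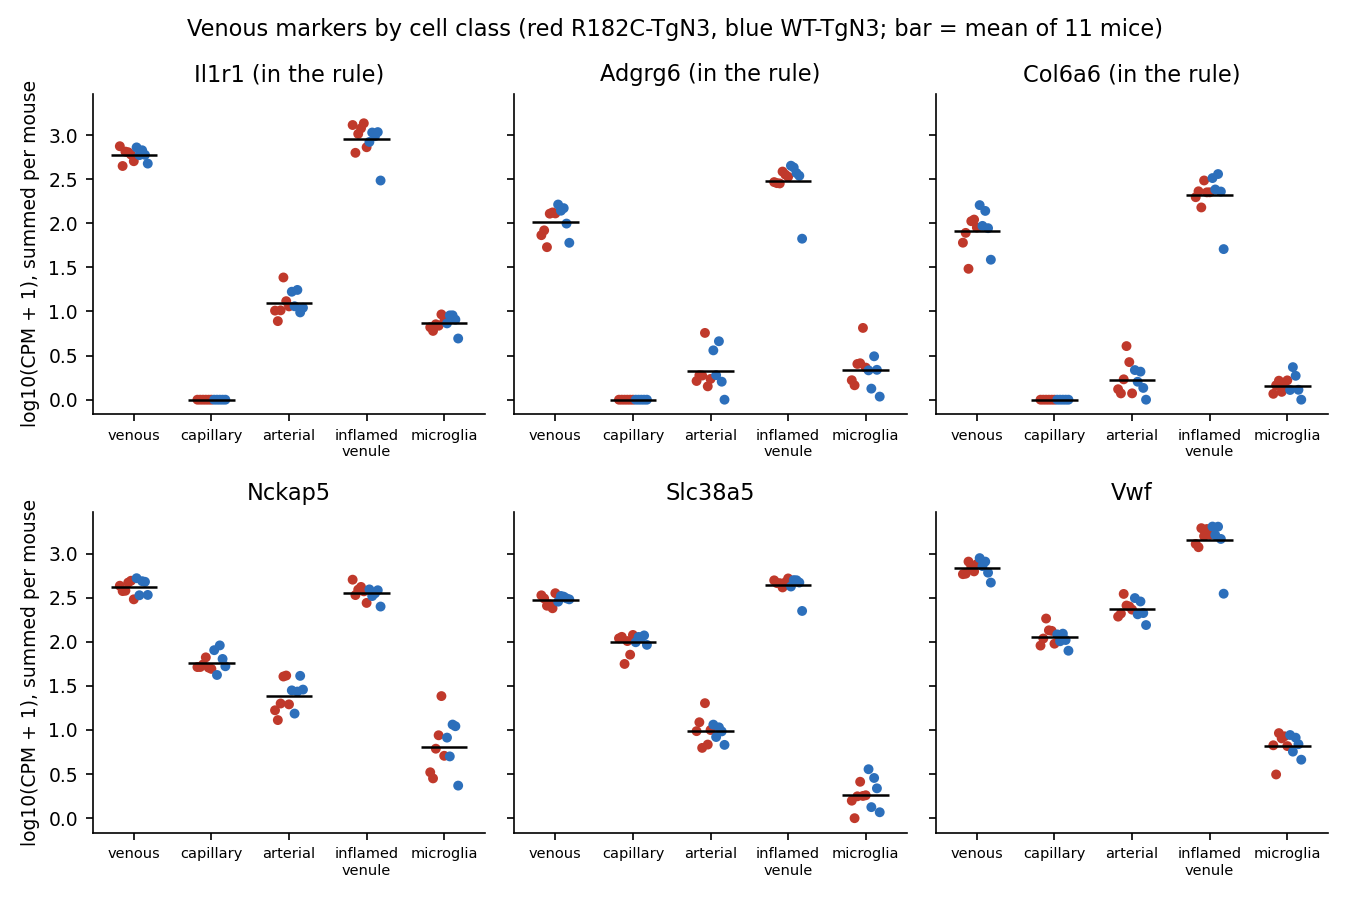
Levels of the 6 venous markers in 5 cell classes, as log10(CPM + 1) of UMIs summed per mouse (red points R182C-TgN3, blue points WT-TgN3, black bar mean of 11 mice). Il1r1, Adgrg6 and Col6a6 were used to choose the cells and are 0 in capillary cells by construction, while Nckap5, Slc38a5 and Vwf were not in the rule and sit highest in the venous and inflamed venule-like classes.

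At equal depth the markers were found in many more venous than capillary cells. Thinned to 2000 UMIs (5898 venous cells, with 114 shallower cells left out, and 14147 capillary cells, with 1946 left out), Vwf was detected in 60.8% of venous and 16.1% of capillary cells, and Nckap5 in 43.9% and 7.14%. Slc38a5 was detected in 40.7% and 15.3%, Nr2f2 in 33.9% and 8.09%, and Vcam1 in 32.1% and 2.60%. Vcam1 was not particular to venous cells, with thinned shares of 18.7% in arterial and 62.3% in inflamed venule-like cells. These rest on 7585 arterial cells, with 317 left out, and 830 inflamed venule-like cells, with 433 left out. Microglia were gated to hold few UMIs of Cldn5, Flt1 and Itm2a. Their thinned shares were 1.22% for Vwf, 1.16% for Nckap5, 0.211% for Slc38a5, 0.421% for Nr2f2 and 1.81% for Vcam1, at a median depth of 5275 UMIs before thinning. That gate leaves out barcodes with more endothelial RNA, so these shares can understate free RNA. Without thinning the venous shares were 86.0% for Vwf, 72.9% for Nckap5, 76.3% for Slc38a5, 70.3% for Nr2f2 and 56.9% for Vcam1. Capillary cells at full depth gave 26.2% for Vwf, 11.7% for Nckap5, 25.6% for Slc38a5, 13.9% for Nr2f2 and 4.67% for Vcam1. Icam1 cannot be read this way because microglia held it too, in 31.5% of thinned cells.

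The profile of venous cells was then set against capillary cells of the same mice, defined as endothelial cells with no UMI of any of the 11 venous, arterial and inflamed venule genes. This is a description without a test, since the selection on expression fixes part of it. Of 3940 genes with at least 50 CPM in either class, 1053 were higher and 759 lower in venous cells in all 11 mice, leaving the rule genes aside, and 92 of these differed by more than 1 log2 unit upward and 53 downward. The median over all 3940 genes was 0.03.

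The largest positive difference was that of the predicted gene Gm5127, at 5.16 ± 0.78 log2 units (SD, n = 11 mice). Vcam1, the vascular adhesion molecule that binds leukocyte integrins, was 3.80 ± 0.68 log2 units higher, at 234 to 448 CPM in venous cells of the 11 mice and 13.4 to 75.2 CPM in capillary cells. These ranges did not overlap. The gene lies at chr3:116109949-116129688 (minus strand) in mm10. Icam1, its partner in leukocyte arrest, was higher by 2.59 ± 0.24. Ptgs2, the inducible cyclooxygenase that makes prostaglandins, was higher by 3.32 ± 0.60, and Cysltr1, a receptor for cysteinyl leukotrienes, by 3.20 ± 0.57. Wnt5a, a secreted Wnt ligand, was higher by 2.70 ± 0.28. The list also held Ppfia2 (3.88), Dach2 (3.14), Nckap5 (2.85), Sdk1 (2.79), Vwf (2.59), Myof (2.57), Cyp2e1 (2.55), Pknox2 (2.52) and Setbp1 (2.40). The smallest SD among these 15 genes was that of Nckap5 (0.23) and the largest that of Ppfia2 (0.99).

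The largest negative differences included capillary and arterial genes. Cxcl12, which encodes a chemokine, was lower by 2.62 ± 0.31 log2 units, at 268 to 929 CPM in venous and 1982 to 3850 CPM in capillary cells, again with no overlap. Cdh13, which encodes a cadherin anchored to the membrane by lipid, had a difference of -3.63 ± 0.88. Dll4, the Notch ligand of arterial and tip cells, had a difference of -1.86 ± 0.24, and Alpl, alkaline phosphatase of arterioles and capillaries, -1.84 ± 0.40. The other genes in this group were Gm9946 (-3.98), Rad54b (-2.55), Fgf13 (-2.24), Tcim (-2.10), Stra6 (-2.07), Esm1 (-2.04), Plekhh2 (-2.01), Igfbp3 (-1.98), 2610307P16Rik (-1.96), Ivns1abp (-1.95) and Stmn2 (-1.92). Esm1 and Igfbp3 varied most among mice, with SDs of 1.43 and 1.27.

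**Figure D2:**
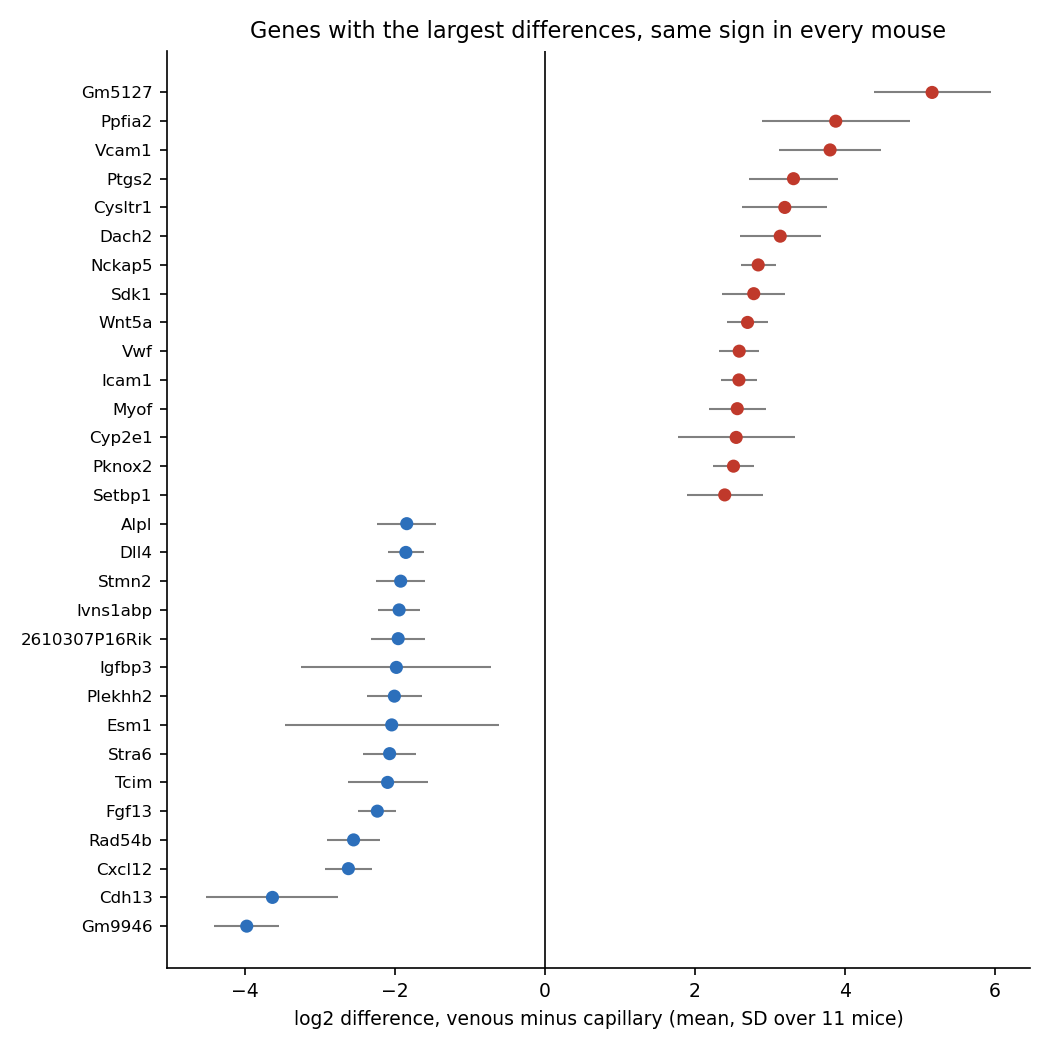
Genes with the largest mean log2 difference between venous and capillary cells of the same mouse (points mean, bars SD over 11 mice), limited to genes with the same sign in every mouse and without the rule genes. Red points are higher in venous cells, from Setbp1 (2.40) to Gm5127 (5.16), and blue points lower, from Alpl (-1.84) to Gm9946 (-3.98).

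The gene lists are described by their counts and medians, without a test. A gene was measured at 50 CPM or more in either class, so some members entered only through the class where they were higher. In the venous list these included Vcam1 and Cysltr1, while Vwf, Icam1 and Nckap5 passed in both classes. Stmn2, Dll4 and Alpl of the arterial list and Ivns1abp of the capillary list entered only through capillary cells. The part of this limit in the counts and medians was not tested. Of 16 measured venous identity genes outside the rule, 13 were higher in venous cells in all mice, and the median difference was 1.76, against 0.03 over all genes. Besides those above they held Tmsb10 (0.89). The 2 genes of the list that were lower in all mice were Plvap, the diaphragm protein of fenestrated endothelium (-1.68 ± 0.78), and Emcn, a sialomucin (-0.73 ± 0.09). Of 13 measured arterial genes, 8 were lower in all mice and 2 higher, with a median of -0.67. Nrp1, a co-receptor for VEGF and semaphorins, had -0.94 and the transcription factor gene Sox17 -0.34. Of 14 capillary genes, 8 were lower in all mice and none higher, with a median of -0.33. Mfsd2a, the lipid transporter that restrains transcytosis at the barrier, was at 66.7 CPM in venous and 151 CPM in capillary cells (-1.19 ± 0.29), whereas Tfrc, the transferrin receptor, and Car4, a carbonic anhydrase, had mixed signs among mice (-0.15 and -0.10).

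Measured genes of the response to interleukin-1, TNF and NF-kB were higher in venous cells. All 11 measured members outside the rule were higher in all 11 mice, with a median of 0.94. Vcam1 (336 against 26.6 CPM) and Ptgs2 (106 against 11.1 CPM) were measured only through their venous level. Il1r1, a member of this list, was used to choose the cells, so the count is not a test of the list. They included Csf1 (1.48), Nfkbia, the inhibitor of NF-kB (0.52), and Icam1. Of 9 genes of the IL-6 and STAT3 response, 7 were higher in all mice and none lower, with a median of 0.59. Il6st, the shared receptor chain of the IL-6 family, was higher by 1.17, Stat3 by 0.84 and Osmr, the oncostatin M receptor, by 0.76. Genes of dissociation stress and immediate early response moved with them: 15 of 22 were higher in all mice and 2 lower, with a median of 0.32, and Fos was higher by 0.57 and Jun by 0.35. The part of this stress signal in the inflammatory lists was not tested.

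The barrier and junction lists did not lean to either side. Of 28 barrier transporter genes, 8 were higher and 8 lower in all mice, with a median of 0.01. Slc6a6, the taurine transporter, was higher by 0.35, Abcb1a, the drug efflux pump P-glycoprotein, by 0.27, and Slco1c1, which carries thyroid hormone, had a difference of -0.44. Of 13 junction genes, 4 were higher and 2 lower, and Tjp1, which encodes the scaffold ZO-1, was higher by 0.55. Cldn5, the main claudin of the barrier, belonged to the gate and was at 3999.8 to 5167 CPM per mouse. Basement membrane genes were lower, with 11 of 16 lower and 2 higher in all mice and a median of -0.32. Igfbp7 had -0.85, while Fn1, fibronectin, was higher by 0.42. Nuclear genes of oxidative phosphorylation were lower in all mice for 31 of 73 and higher for 1 (median -0.11), and the 13 genes of mitochondrial DNA were higher for 8 and lower for none (median 0.16).

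The other lists had medians between -0.08 and 0.21. Of 8 antigen presentation genes, 5 were higher and none lower (median 0.21), with H2-K1 higher by 0.45 and B2m by 0.21. Of 11 leukocyte adhesion genes, 2 were higher, Vcam1 and Icam1, and 4 lower (median -0.06). Of 7 coagulation genes, 3 were higher and none lower (median 0.17). Of 15 hypoxia and glycolysis genes, 3 were higher and 2 lower (median -0.04). Of 20 interferon genes, 2 were higher and 5 lower (median -0.07), and Irf1 was higher by 1.12. In the Notch list, 1 of 11 was higher, Maml2 (0.21), and 4 were lower (median -0.08), among them Dll4. Of 18 genes of TGF-beta, BMP and ALK1 signalling, 6 were higher and 7 lower (median 0.04), with Id1 at -0.31 and Eng at -0.38. Of 20 Wnt genes, 8 were higher and 4 lower (median -0.04), and Lef1, the transcription factor of barrier Wnt signalling, was higher by 0.38. Of 10 VEGF and angiopoietin genes, 5 were higher and 3 lower (median 0.03), with Ptprb higher by 0.55 and Tek, the angiopoietin receptor, by 0.20. Of 10 shear stress genes, 5 were higher and 1 lower (median 0.10), and Klf4 was higher by 0.36. Of 10 caveolar genes, 4 were higher and 3 lower (median 0.10), with Cav1, the coat protein of caveolae, higher by 0.38.

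Venous cells also differed among themselves. After thinning to 2000 UMIs they were ranked by the UMIs they then held of Il1r1, Adgrg6 and Col6a6, giving 1600 cells with 0, 1746 with 1, 1293 with 2 and 1259 with 3 or more. Along this rank Vwf was at 476, 543, 699.6 and 1030 CPM. Nckap5 was at 299.9, 356, 379.8 and 552 CPM. Gm5127 had 174 and 621 CPM at the ends and Myof, a membrane repair gene, 134 and 315 CPM. These 4 genes were higher at the top than at the bottom in 11 of 11 mice. Of the 15 genes with the largest positive venous difference, 14 had a higher mean at the top, 9 of them in all 11 mice. The exception was Cyp2e1, at 135 CPM at the bottom and 102 CPM at the top, lower in 8 mice. Slc38a5 had a shallower course, with 276 CPM at the bottom and 348 CPM at the top.

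Of the 15 genes with the largest negative difference, 14 had a lower mean at the top, 3 of them in all 11 mice, and the exception was Stmn2, at 18.4 and 27.4 CPM. Cxcl12 was at 607, 571, 480 and 249 CPM along the rank, Mfsd2a at 85.5 and 44.0 CPM at the ends, and Car4 at 741 and 407 CPM, each lower at the top in 11 of 11 mice. Slc16a1, the monocarboxylate transporter, changed little (387 and 338 CPM) and was lower at the top in 8 mice. Esm1, a gene of tip and fenestrated endothelium, had 59.9 CPM in cells left without a rule UMI and 0.376 CPM at the top, and was lower there in 9 mice. The ranks use the rule genes, so this is a description of how other genes vary along them, and it carries no test.

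**Figure D3:**
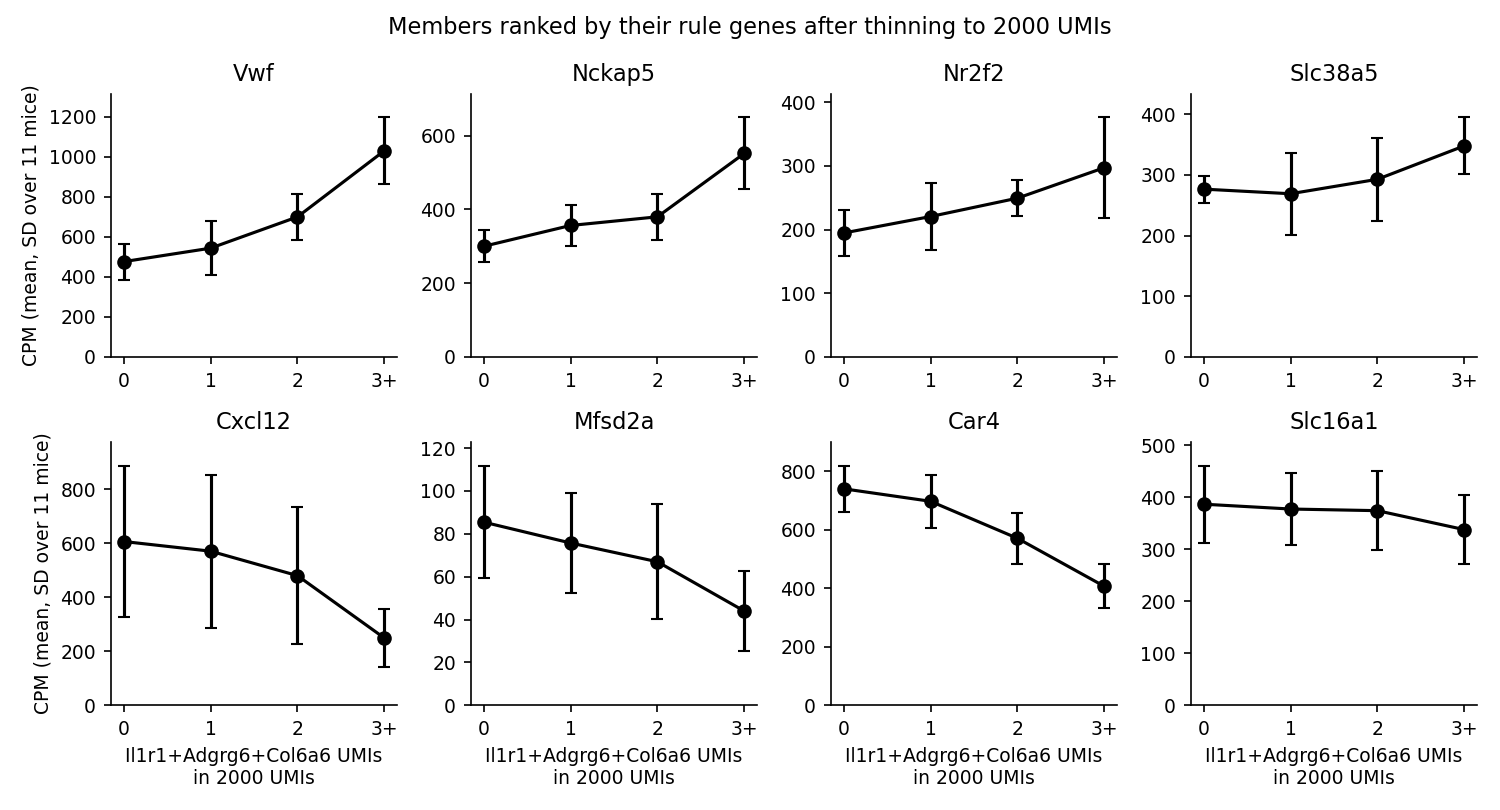
CPM of 4 venous genes (top) and 4 capillary genes (bottom) in venous cells ranked by the number of Il1r1, Adgrg6 and Col6a6 UMIs left after thinning each cell to 2000 UMIs (points mean, bars SD over 11 mice, linear axes from 0). Vwf went from 476 to 1030 CPM and Cxcl12 from 607 to 249 CPM between the lowest and the highest rank.

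The share of venous cells was compared between the genotypes, to see whether the CADASIL mice held fewer or more of them. Venous cells made up 15.1 ± 1.55% of the endothelial gate in CADASIL mice (SD, n = 6) and 16.1 ± 2.34% in control mice (n = 5). In the CADASIL mice the share ran from 13.5% through a median of 15.2% to 17.5%. The control mice had 15.5%, 16.7%, 13.6%, 19.8% and 14.98%, and the groups overlapped. The difference of -1.03 percentage points was within the spread between mice (exact permutation test over 462 splits, two-sided, p = 0.420). Exchanging mice only within batches, which leaves out R182C-TgN3 mouse 3, the only mouse of its batch, gave -0.70 points (exact permutation test over 72 arrangements, p = 0.583), with -0.76 in batch 1, -1.99 in batch 3 and 2.01 in batch 4. Thinned to 2000 UMIs, the shares were 9.34% and 9.56%. The limit on inflamed venule genes bore on the sign: without it the shares were 18.6% in CADASIL and 18.04% in control mice, a difference of 0.52 points. The inflamed venule-like class was gated on those genes without a venous marker sum, so it is not the same set as the cells this limit removes. Of its 1263 cells, 36.7% carried a barcode shared between libraries. The part of such barcodes in the shares was not tested. Mice of 9 months had 16.3% and mice of 6 months 14.97% (exact permutation test, p = 0.264).

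**Figure D4:**
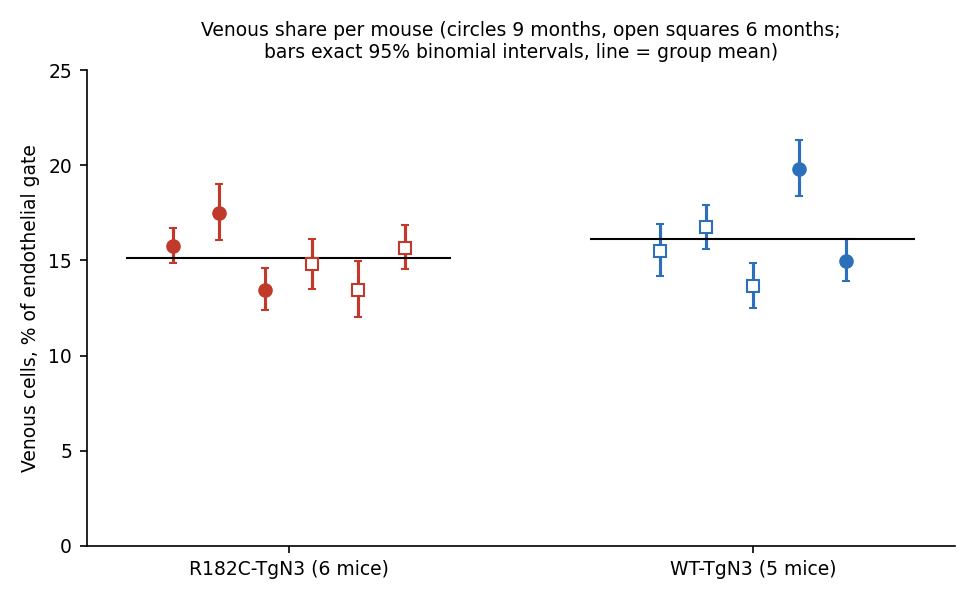
Venous cells as a percentage of the endothelial gate in each mouse (filled circles 9 months, open squares 6 months, bars exact 95% binomial intervals that cover counting error only, line mean of the group). The 6 CADASIL mice sit between 13.5% and 17.5% and the 5 control mice between 13.6% and 19.8%.

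The genotype contrast asked whether venous cells of CADASIL mice differed in expression from those of control mice. UMIs were summed per mouse over its venous cells and tested with edgeR's quasi-likelihood test. None of 11454 genes passed an adjusted p of 0.05 (0%). At an unadjusted p under 0.05 there were 231 genes, and DESeq2 also called 0, with 184 genes at an unadjusted p under 0.05. The median standard error of the log2 fold change was 0.122, and for 92.7% of the genes the 95% interval lay within 1 log2 unit of no difference. Smaller differences could have gone undetected with this number of mice and the spread between them.

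The markers of venous cells were alike in level between the genotypes. Il1r1, a rule gene, was at 445 to 746 CPM in CADASIL mice (median 619) and at 724, 591, 671, 595 and 474 CPM in control mice. Vwf ran from 583 through 667 to 810 CPM in CADASIL mice and was at 887, 719.9, 809.8, 606 and 468 CPM in control mice, a log2 fold change of 0.01 ± 0.16 (SE). Nckap5 had -0.04 ± 0.14, Slc38a5 -0.03 ± 0.11, Nr2f2 -0.04 ± 0.12, Vcam1 0.04 ± 0.16 and Icam1 0.09 ± 0.22, each with an edgeR adjusted p of 1.00. The groups overlapped for each of these genes.

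The genes with the smallest p were named although none passed. Pde10a, a cyclic nucleotide phosphodiesterase gene, was at 14.1 to 23.7 CPM in CADASIL mice (median 17.1) and at 26.2, 24.0, 27.3, 24.8 and 27.1 CPM in control mice. Its groups did not overlap, and its log2 fold change was -0.50 ± 0.11 (edgeR adjusted p = 1.00). Bnip3, a hypoxia-responsive gene of mitophagy, was at 27.9 to 34.2 CPM (median 30.7) against 26.8, 23.5, 25.2, 24.4 and 25.2 CPM, again without overlap, with 0.34 ± 0.08 (edgeR adjusted p = 1.00). Ldb2, an adaptor of LIM domain transcription factors, had -0.80 ± 0.21 and Vav3, which encodes a guanine nucleotide exchange factor, -1.13 ± 0.29, and both overlapped. The others were Psph (0.37), Speg (-1.17), Ubash3b (-0.91), Racgap1 (-1.36), Igdcc3 (-0.78) and Sh3gl2 (-1.43), and the edgeR adjusted p of all 10 was 1.00. The groups did not overlap for Speg, Ubash3b, Racgap1 and Igdcc3 either. Over all 11454 genes they did not overlap for 23 (0.201%), and since these 10 were taken for their small p, nothing is read from their separation. Leaving out R182C-TgN3 mouse 4 gave Pde10a the lowest adjusted p in any of the leave-one-out fits, 0.307.

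No gene of the lists passed. Genes of mitochondrial DNA were left out of the contrasts, and the genes of the rule were left out of the lists. The median log2 fold change was -0.04 for 19 venous identity genes, 0.04 for 18 arterial, 0.07 for 17 capillary, -0.01 for 16 junction and 0.06 for 29 barrier transporter genes, against 0.01 over all genes tested. It was 0.05 for 25 genes of the interleukin-1 and TNF response, 0.05 for 12 of the IL-6 response, 0.11 for 26 interferon genes, 0.05 for 15 of antigen presentation and 0.02 for 14 of leukocyte adhesion. Among 78 nuclear genes of oxidative phosphorylation, 73 had a positive and 5 a negative value, with a median of 0.09 and a range from -0.07 to 0.17. Among 25 hypoxia and glycolysis genes, 22 were positive (median 0.13). Over all genes, 6005 were positive and 5449 negative. The Notch list had a median of -0.02 over 24 genes, the TGF-beta list 0.03 over 26, the Wnt list 0.03 over 20 and the VEGF and angiopoietin list -0.06 over 15. The remaining lists had medians of -0.07 (14 shear stress genes), 0.03 (24 matrix genes), -0.02 (10 caveolar genes), 0.03 (13 coagulation genes), 0.12 (11 complement genes) and 0.08 (22 stress genes).

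Markers of mural cells and microglia leaned to the same side. Without the genes that the gate caps, all 6 tested mural genes and all 9 microglial genes had positive values, with medians of 0.56 and 0.66. The summed markers that follow hold the capped genes too. The summed mural markers ran from 21.2 to 132 CPM in CADASIL mice (median 49.7) and from 21.3 to 65.5 CPM in control mice (median 49.2), with no gene of the 12 at 0 in all mice. The summed microglial markers ran from 225 to 649 CPM (median 454) and from 224 to 496 CPM (median 376). All 7 tested genes of fenestrated endothelium and choroid plexus had negative values (median -0.39), and 5 of 6 blood cell genes were positive (median 1.19). Few genes of the astrocyte (4), neuron (2), oligodendrocyte (3) and fibroblast (2) lists were high enough to be tested, and none of the lymphatic list. Their part in the small positive medians was not tested. Without the 34 cells that carried foreign RNA, and without barcodes shared between libraries, 0 genes were called in either case.

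The transgene itself was scarcely seen in these cells. Human NOTCH3 was at 0 to 3.70 CPM in CADASIL mice (median 0.546) and at 0.552, 0.115, 0.779, 0.731 and 0.553 CPM in control mice. Mouse Notch3, the receptor of mural cells, was at 1.38 to 5.18 CPM (median 2.85) and at 1.93, 2.65, 4.41, 1.77 and 1.52 CPM. The groups overlapped for both genes. Gene counts hold no bases, so they do not check which NOTCH3 form a mouse carried. The receptors of endothelial cells were alike, with log2 fold changes of 0.02 ± 0.08 for Notch1 and -0.02 ± 0.09 for Notch4.

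The genotype effect was also compared between venous and capillary cells of the same mice, in 1 model with mouse as a block. None of 12008 genes passed (0%), 393 had an unadjusted p under 0.05, and DESeq2 called 0. The smallest p belonged to Mctp1, a gene of a calcium-binding membrane protein, with a difference of 1.44 ± 0.32 log2 units (edgeR adjusted p = 1.00). Prune2 (-1.63 ± 0.40), Hsd17b4 (-0.25 ± 0.07), Sntg1 (2.25 ± 0.60) and Lrrc69 (-1.77 ± 0.48) followed, each with an edgeR adjusted p of 1.00. The difference of the genotype effect between 9 and 6 months likewise passed for none of 11454 genes (0%), with 265 at an unadjusted p under 0.05. Erc2, which encodes a scaffold of the presynaptic active zone, had the smallest p, with -4.65 ± 0.77 log2 units (edgeR adjusted p = 0.452). It was called by DESeq2 (adjusted p = 0.000377), the only gene that tool called there. Without the cells that carried foreign RNA its difference was -1.25 (edgeR adjusted p = 1.00). Its level in venous cells did not exceed 11.1 CPM in any mouse.

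Venous cells of 9-month mice differed from those of 6-month mice in a limited set of genes, and this difference is also the difference between batches. The edgeR quasi-likelihood test with genotype as a term called 54 of 11454 genes (0.471%), 26 higher at 9 months (0.227%) and 28 lower (0.244%). One of the lower genes was the rule gene Adgrg6, whose level the selection uses, so 53 calls lay outside the rule, 26 higher and 27 lower. The 2 ages did not overlap for 43 of the 53, against 180 of all genes tested (1.57%). The 53 were called for their age difference in these same mice, so nothing is read from their separation. The number of calls depended on single mice: it was 13 without R182C-TgN3 mouse 4, 14 without WT-TgN3 mouse 5, 21 without WT-TgN3 mouse 1, 25 without R182C-TgN3 mouse 5, 30 without R182C-TgN3 mouse 1, 92 without R182C-TgN3 mouse 3 and 96 without R182C-TgN3 mouse 6. Of the 53 genes, 7 were called in all 11 of these fits, and DESeq2 called 212, all 53 among them. Without the cells that carried foreign RNA, 48 of the 53 stayed called. Venous cells of the 9-month mice were deeper, with median UMIs of 7391 to 14373 against 5440 to 9431, and the part of depth was not tested.

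The genes that fell included Lama1 and Acsl4. Lama1, a laminin chain of the basement membrane, was at 6.84, 9.23, 5.34, 8.24 and 5.26 CPM at 9 months and at 13.7 to 19.3 CPM (median 15.7) at 6 months. It fell by 1.19 ± 0.16 log2 units (edgeR adjusted p = 0.00862) with no overlap, and was called in all 11 leave-one-out fits. Acsl4, which activates polyunsaturated fatty acids, was at 43.2, 39.5, 36.8, 52.6 and 40.9 CPM against 55.0 to 82.6 CPM (median 69.0). It fell by 0.68 ± 0.09 (edgeR adjusted p = 0.00862), also in all 11 fits and without overlap. Col5a2, a fibrillar collagen chain, had a log2 fold change of -1.28 ± 0.22 (edgeR adjusted p = 0.0230). Il31ra, a receptor chain for interleukin-31, was at 40.0, 66.5, 119, 44.7 and 46.2 CPM against 101.5 to 276 CPM (median 214), which overlapped, and had -1.69 ± 0.29 (edgeR adjusted p = 0.0230).

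The largest falls otherwise were in genes of low level. They were Pde6a (-2.98), Klhl14 (-2.71), Hist1h2ap (-2.61), Nell1 (-2.41), Xlr5a (-2.38), Wdr72 (-2.22), Angpt1 (-2.14), Hist2h2aa1 (-2.03), Mc1r (-1.98) and Gstp1 (-1.71), with edgeR adjusted p from 0.00862 to 0.0462. Angpt1, the mural cell ligand of the endothelial receptor Tek, was at 2.07, 1.09, 0.989, 1.46 and 0.968 CPM at 9 months and at 3.23 to 9.01 CPM at 6 months. Without the cells that carried foreign RNA its log2 fold change was -1.50 and its call was lost (edgeR adjusted p = 0.171), and that of Zeb2 went from -0.93 to -0.78 (edgeR adjusted p = 0.0554). The mural markers leaned the same way: all 6 tested outside the gate genes had negative values (median -1.49), and the sum of the whole list was 21.2 to 49.2 CPM at 9 months and 35.7 to 132 CPM at 6 months. Both tested fibroblast genes were also negative (median -1.37), while all 7 genes of fenestrated endothelium and choroid plexus (median 0.74) and 5 of 6 blood cell genes (median 0.97) were positive. The part of these cells in the age calls was not tested. Of the rule genes, Adgrg6, an adhesion receptor, was at 72.3, 82.1, 52.6, 98.2 and 59.1 CPM at 9 months and 127 to 162 CPM at 6 months, which is described without a test because the cells were chosen by it. Over the whole endothelial gate, which does not use it, Adgrg6 had -0.78 (edgeR adjusted p = 0.146). The rule gene Col6a6 was also lower, at 29.5 to 87.0 CPM at 9 months and 88.5 to 160 CPM at 6 months. Il1r1 overlapped, at 445 to 746 CPM and 504 to 724 CPM. These levels too are described without a test. The part of the rule genes' levels in the age calls was not tested.

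Genes that rose at 9 months included 2 heat shock genes. Hspa8, a constitutive heat shock chaperone, was at 902, 687, 821, 952 and 852 CPM at 9 months and at 513 to 612 CPM (median 547) at 6 months, and rose by 0.58 ± 0.10 log2 units (edgeR adjusted p = 0.0230) without overlap. Hsp90aa1, its larger partner, rose by 0.67 ± 0.13 (edgeR adjusted p = 0.0368). Gadd45b, induced by stress and NF-kB, was at 191, 171, 120.2, 184 and 177 CPM against 56.3 to 119.96 CPM (median 83.4), and rose by 0.99 ± 0.16 (edgeR adjusted p = 0.0230). Ddit3, the transcription factor CHOP of the unfolded protein response, rose by 0.78 ± 0.14 (edgeR adjusted p = 0.0264). In the list of dissociation stress and immediate early genes, 2 of 22 were called and 21 had positive values, with a median of 0.28 against -0.01 over all genes. The list summed to 18041 to 26674 CPM at 9 months and 14045 to 24093 CPM at 6 months. Whether handling differed between the batches was not tested.

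Kcnn2, a calcium-activated potassium channel, was at 12.3, 12.6, 9.29, 7.62 and 10.9 CPM against 1.31 to 5.15 CPM (median 2.63) and rose by 1.84 ± 0.30 (edgeR adjusted p = 0.0230). Rnaset2a and Rnaset2b, near-identical ribonuclease genes on chromosome 17 whose reads cannot be split with certainty, rose by 1.52 ± 0.18 and 1.39 ± 0.22 (edgeR adjusted p = 0.00862 and 0.0188). Smad7, the inhibitor of TGF-beta signalling, was at 168, 227, 205, 184 and 192 CPM against 110.0 to 147 CPM (median 132), and rose by 0.55 ± 0.10 (edgeR adjusted p = 0.0341). It was the only call among 26 TGF-beta, BMP and ALK1 genes. The rest of the 10 largest rises were Mir22hg (1.15), Acsl6 (0.90), Mrps6 (0.70), Tnfrsf12a (0.70) and Tmeff1 (0.68). In most lists no gene passed: none of 18 arterial, 17 capillary, 16 junction, 29 transporter, 25 interleukin-1 and TNF, 26 interferon or 78 oxidative phosphorylation genes was called, with medians from -0.05 to 0.10. Of the VEGF and angiopoietin list of 15 genes, the call was Angpt1.

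Fitted on all endothelial cells, which include the venous ones, the same contrast called 46 genes. Lama1 had -1.11 there (edgeR adjusted p = 0.0556) and Hspa8 0.61 (edgeR adjusted p = 0.0434). The age effect differed between venous and capillary cells for 116 of 12008 genes (0.966%), 92 with a positive (0.766%) and 24 with a negative difference (0.2%), by edgeR's test of the difference, for 30 genes without the cells that carried foreign RNA, and for 11 genes when venous cells needed a marker sum of at least 3. Among the positive calls with all cells were Folr1, Ttr, Kl and Enpp2. They belong to the list of fenestrated endothelium and choroid plexus, in which all 8 tested genes were positive. This comparison of the age effect between classes was added after the age contrast had been seen.

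**Figure D5:**
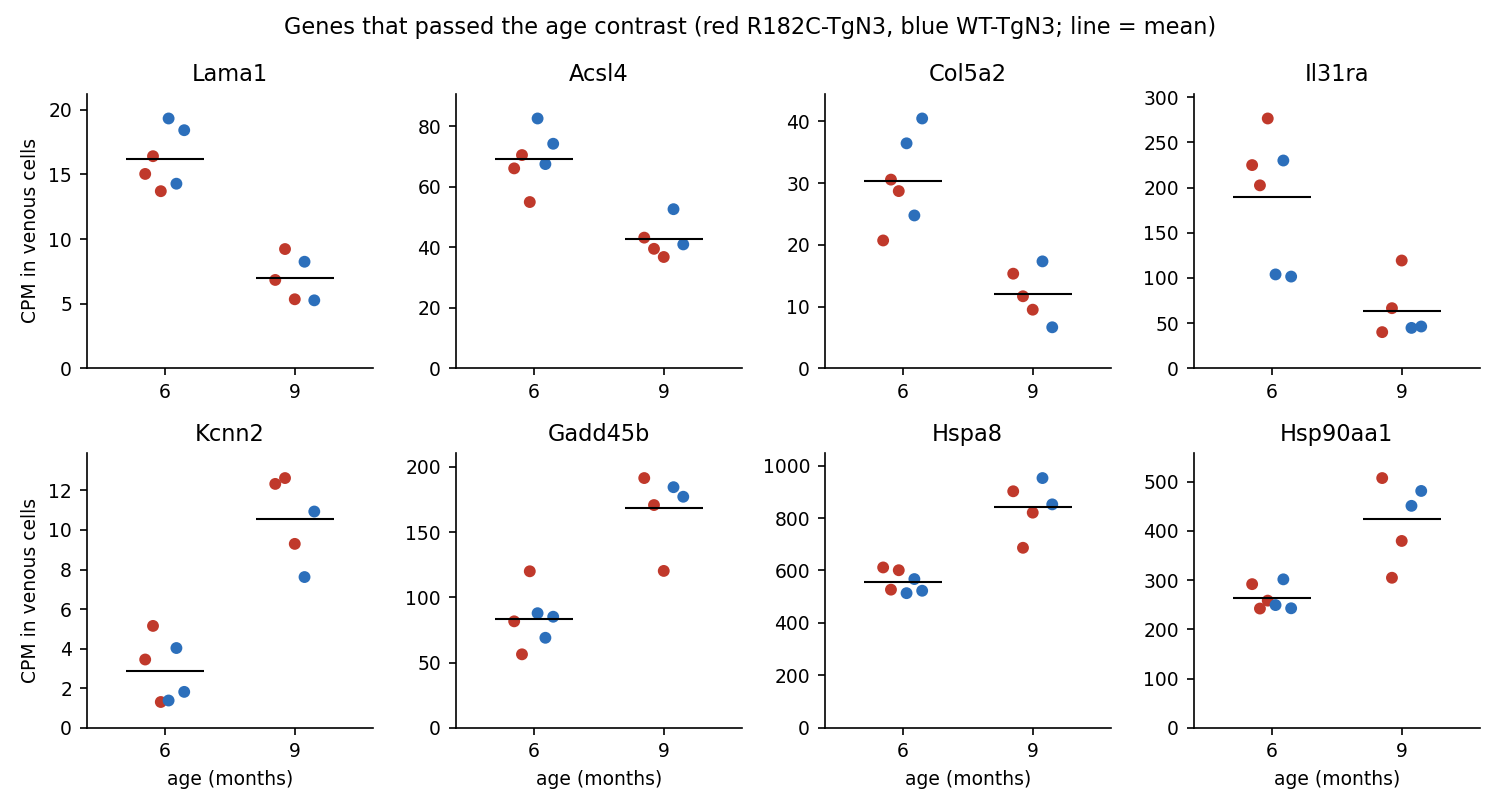
CPM in venous cells of each mouse at 6 and 9 months for 4 genes that fell (top) and 4 that rose (bottom), with linear axes from 0 (red R182C-TgN3, blue WT-TgN3, line mean). Lama1 sat at 13.7 to 19.3 CPM at 6 months and 5.26 to 9.23 CPM at 9 months, and Hspa8 at 513 to 612 and 687 to 952 CPM.

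Sex was read as a check of the labels. Of 11621 genes, 12 passed (0.103%), 8 higher in females (0.0688%) and 4 lower (0.0344%), all of them linked to the sex chromosomes. Xist, the RNA that silences an X chromosome, was at 560 to 736 CPM in the 7 females and at most 0.136 CPM in the 4 males, and its antisense gene Tsix was counted beside it. The Y genes Uty, Eif2s3y, Ddx3y and Kdm5d were at most 0.519 CPM in females and at least 22.9 CPM in males. Other X-linked genes were higher in females, with Kdm6a at 155 to 256 CPM against 109.5, 127, 108 and 94.8 CPM in males. Its log2 fold change was 0.94 ± 0.13 (edgeR adjusted p = 0.00398), and Ddx3x, the smallest of the 8, had 0.63 ± 0.09 (edgeR adjusted p = 0.00593). The others were Pcdh11x (2.97), Eif2s3x (0.79), Kdm5c (0.79) and Vamp7 (0.77). Every library matched the sex of its label.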

How the data were processed

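UMI counts per gene and barcode were used as deposited. The authors made these counts with Cell Ranger 7.0.0 from 10x 3′ libraries, aligned to the mouse mm10 transcriptome with human NOTCH3 added, one library per mouse. Depth, doublets and foreign RNA of the venous cells are given in the report, and intervals on shares cover counting error only. The members, gene lists and tests were chosen with earlier results of these data known. Cells were selected by the rule, the counts of each mouse were summed over its venous cells, and CPM was taken over all UMIs of that sum. Contrasts were fitted with edgeR 4.0.16 (TMM, filterByExpr, quasi-likelihood test, Benjamini-Hochberg adjustment over all genes tested, threshold 0.05) in R 4.3.3, leaving out ribosomal, mitochondrial, Gm and Rik genes as the study did, with DESeq2 1.42.0 as an alternative. The SE of a log2 fold change is its size over the square root of the F statistic. Venous against capillary differences are per-mouse differences of edgeR's log2 CPM with a prior count of 2. Shares were compared with exact permutation tests in scipy 1.17.1. The edgeR fit was tested on simulated data.

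The study left 1 control mouse, not named in the sources used here, out of a microglial comparison, and all mice were kept here. Named genes were the markers, the 15 largest differences each way in the profile, the 10 largest rises and falls past the threshold (or the 10 smallest p where fewer than 5 passed), and called or abundant members of the lists. Lama1, Acsl4, Col5a2, Il31ra, Zeb2 and Erc2's DESeq2 value were singled out after values were seen. Removal of shared barcodes and of cells with foreign RNA, the whole-gate fit and the test of age by cell class were also added after seeing the data. Alternatives covered the marker limits, filters on genes and mitochondrial share, doublets, thinning, normalization, the low-count filter, single mice left out and the replicate block. The mice of a group are separate animals. Values of 1 gene of the lists are not reported here.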

Additional observations from a re-analysis of the deposited data

Results flagged for a closer look

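The effect of age differed between venous and capillary cells for 116 genes (edgeR quasi-likelihood test of the difference, with mouse as a block), and 28 genes passed both with all cells and without those that carried foreign RNA. At a venous marker sum of at least 3 the count was 11. The values of these 28 genes follow, as the age effect in venous cells minus that in capillary cells, in log2 units. The positive differences were Cyp2e1 1.03, Lrrn3 0.86, Zfp710 0.57, Cxcl12 0.53, Gadd45b 0.51, Rgcc 0.44, Ivns1abp 0.43, Mfsd2a 0.41, Plscr2 0.37, Fut8 0.33, Tfrc 0.32, Ets1 0.31, Hbegf 0.30 and Sipa1l2 0.27. Cxcl12, Rgcc, Ivns1abp, Mfsd2a and Tfrc were the calls among 17 capillary genes, against 0.966% called over all genes. The negative differences were Cyp26b1 -1.72, Tmem252 -0.66, Sbno2 -0.66, Acsl4 -0.56, Apold1 -0.49, Hspb8 -0.46, Vcl -0.46, Socs3 -0.45, Acer2 -0.44, Ier3 -0.40, Cttnbp2nl -0.38, Atf3 -0.36, Prkg1 -0.34 and Stat3 -0.30. Socs3 and Stat3 were the calls among 14 genes of the IL-6 response, and Ier3 and Atf3 were among 4 calls of 22 stress and immediate early genes. With all cells the 10 largest positive differences were Prlr 7.82, Otx2 7.60, Clic6 7.57, Sostdc1 7.48, Kcne2 7.20, Pcolce2 6.98, Tmem72 6.66, Drc7 6.29, Lmx1a 6.24 and A2m 6.20. These are not among the 28. The list of fenestrated endothelium and choroid plexus held 4 positive calls, Folr1, Ttr, Kl and Enpp2, of 8 tested genes. Of the 92 positive calls, 49 were still tested and 14 still called without the foreign RNA cells, and 14 of the 24 negative calls were still called. Cells of 9-month mice were deeper, and the rule takes cells by raw UMIs, so the venous class can differ between ages; the part of depth was not tested, and age cannot be told apart from batch.

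A single mouse stood apart from its group in 15 of 98 groups of values examined, where chance flags about 1 in 20 groups. The groups are not independent and include genes chosen for their small p, so no excess over chance is read from this count. In venous cells of CADASIL mice, Psph was lowest at 12.1 CPM in mouse 3, Ubash3b lowest at 2.71 CPM in mouse 4 and Sh3gl2 highest at 2.17 CPM in mouse 2. Ubash3b was highest at 15.6 CPM in control mouse 2. Summed markers of astrocytes (68.4 CPM) and fibroblasts (111 CPM) were highest in CADASIL mouse 6, those of fenestrated endothelium and choroid plexus (3808 CPM) in CADASIL mouse 3, those of neurons (172 CPM) in control mouse 5 and those of fibroblasts among controls (39.9 CPM) in control mouse 4. Among the 9-month mice, Pde6a (4.35 CPM), Nell1 (1.38 CPM) and Xlr5a (10.5 CPM) were highest in CADASIL mouse 3, and Rnaset2a (24.8 CPM), Rnaset2b (69.3 CPM) and Mrps6 (38.9 CPM) in control mouse 4.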

How the results depend on the processing

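The genotype contrast called 0 genes in all 31 alternatives. The venous share kept its sign except without the limit on inflamed venule genes (0.52 points), and leaving out 1 mouse gave -1.65 to -0.11 points, the last without WT-TgN3 mouse 4. The genotype effect in venous against capillary cells called 2 genes without the low-count filter, Mcpt8 and Prss34, which are mast cell and basophil genes. The difference of the genotype effect between ages within venous cells called 1 gene with DESeq2 and 0 to 1 with 1 mouse left out (Cacna2d1 without WT-TgN3 mouse 4). The age contrast called 212 genes with DESeq2 and 13 to 96 with 1 mouse left out. The age effect in venous against capillary cells called 11 genes at a marker sum of at least 3, 30 without foreign RNA cells, 193 without the low-count filter and 62 to 121 with 1 mouse left out. With all other endothelial cells in place of capillary cells, 47 genes were higher by over 1 log2 unit in all mice. The causes were not tested. Of the refits of named genes in the age contrast, 258 kept their call and 95 lost it.

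Same-numbered mice of an age did not deviate together: 2 of 5 pairs had a correlation above 0.1, so the numbers were not taken as pairing. With the replicate block the genotype contrast called 0 genes (216 at an unadjusted p under 0.05) and the share difference was -0.70 points (exact permutation test, p = 0.63).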
